A study of Mus musculus with 6 samples.

Results

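The cells described here were a small subset of lymph node invariant natural killer T (iNKT) cells, selected on their transcripts: cells with at least 1 unique molecular identifier (UMI, 1 captured transcript) of 2 or more of the 8 genes Ccl1, Nrgn, Pdcd1, Il13, Il4, Ccr10, Cd200 and Hes1, and 0 UMIs of Ccr6, Il23r, Blk, Klrb1c and Top2a. In the 2 lymph node libraries 329 of 5486 cells met this rule, and in the whole series 461 of 16532 cells met it. The series holds 3′ droplet profiles of iNKT cells from wild-type C57BL/6 mice aged 5 weeks, with 2 libraries each from lymph node, spleen and liver and with no treatment. Cells stained with CD8 or B220 antibodies were removed on magnetic beads, and TCR-β+ CD1d-tetramer+ cells were then sorted. The study's methods call the 2 libraries of an organ biological repeats. How many mice went into a library was not given in the sources used here. Lymph node libraries held RNA of Y-linked genes and spleen and liver libraries held Xist, so organ and sex of the mice cannot be told apart in any comparison between organs.

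iNKT cells carry a semi-invariant T cell receptor for lipids presented by CD1d, and are grouped by the cytokines and transcription factors they use. iNKT1 cells express T-bet (Tbx21) and natural killer receptors and make interferon-γ, iNKT17 cells make interleukin-17, and iNKT2 cells express PLZF (Zbtb16) and GATA3 at high levels and make interleukin-4 and interleukin-13. Among the genes used for selection, Il4 and Il13 encode the type 2 cytokines and Ccl1 encodes a chemokine for the receptor CCR8. Ccr10 encodes a receptor for skin and mucosal chemokines, Pdcd1 the inhibitory receptor PD-1, Cd200 a surface ligand of an inhibitory receptor, Nrgn the calmodulin-binding protein neurogranin and Hes1 a repressor induced by Notch. Ccr6, Il23r and Blk mark iNKT17 cells, Klrb1c encodes NK1.1 of iNKT1 cells, and Top2a is used in DNA replication and mitosis.

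The promoters of the cytokine and chemokine genes and of Nrgn are shown because these genes name the cells. Each run is the 150 bases before the RefSeq start site in GRCm38.p6, written 5′ to 3′ on the strand of the gene, which is the minus strand for each of them. Capitals mark the NFAT core GGAAA, or TTTCC where it lies on the other strand, and the GATA motif AGATAA.
Ccl1, chr11:82179813-82179962: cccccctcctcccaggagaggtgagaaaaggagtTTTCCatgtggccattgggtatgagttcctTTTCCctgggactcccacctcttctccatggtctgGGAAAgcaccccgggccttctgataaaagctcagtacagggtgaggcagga
Nrgn, chr9:37552746-37552895: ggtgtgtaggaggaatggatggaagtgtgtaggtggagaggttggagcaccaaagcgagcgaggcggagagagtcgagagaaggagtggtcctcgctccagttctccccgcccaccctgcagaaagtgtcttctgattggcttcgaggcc
Il13, chr11:53634703-53634852: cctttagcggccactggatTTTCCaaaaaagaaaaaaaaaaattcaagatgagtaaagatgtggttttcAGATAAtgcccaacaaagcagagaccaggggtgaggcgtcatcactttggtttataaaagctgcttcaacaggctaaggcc
Il4, second start site, chr11:53618666-53618815: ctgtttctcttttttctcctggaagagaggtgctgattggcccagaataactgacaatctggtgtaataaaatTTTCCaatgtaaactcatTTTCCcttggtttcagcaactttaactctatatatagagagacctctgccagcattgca

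Promoter entries were found for 6 of the 8 genes, and Ccr10 and Hes1 are named only. Il4 has 2 entries, which makes 7 in all. Within 250 bases before the start site and on both strands, 4 of the 7 held the NFAT core, against 55.6% of 32851 RefSeq promoters, and the first Il4 start site (chr11:53617339-53617488 for its last 150 bases, not shown) held none. The AP-1 motif TGANTCA was in 0 of the 7 (6.75% of all promoters), the GATA motif in 2 (9.99%) and the EGR motif GCGNGGGCG in 1 (4.70%). A match is a description of these letters and not a binding site, and no motif searched contains another.

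The rule cells made up 6.44% of the first lymph node library (170 of 2638 cells, exact 95% interval 5.54 to 7.45%) and 5.58% of the second (159 of 2848 cells, 4.77 to 6.49%). In spleen the shares were 1.76% (48 of 2729) and 1.51% (40 of 2655), and in liver 0.893% (25 of 2801) and 0.664% (19 of 2861). Both lymph node shares lay above the 4 others, which is a description without a test, because the lymph node was chosen with its share known and the intervals cover counting error only. The share of cells rises with depth, and the median UMI count was 2346 in rule cells against 1699 in the remaining cells of the first lymph node library, and 2047 against 1448 in the second. With each cell thinned to 1000 UMIs the mean shares were 3.09 ± 0.311% in lymph node, 0.356 ± 0.0656% in spleen and 0.231 ± 0.178% in liver (SD, n = 2 libraries each). The means kept their order, but the single libraries of spleen (0.309 and 0.402%) and liver (0.357 and 0.105%) then overlapped.

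**Figure D1:**
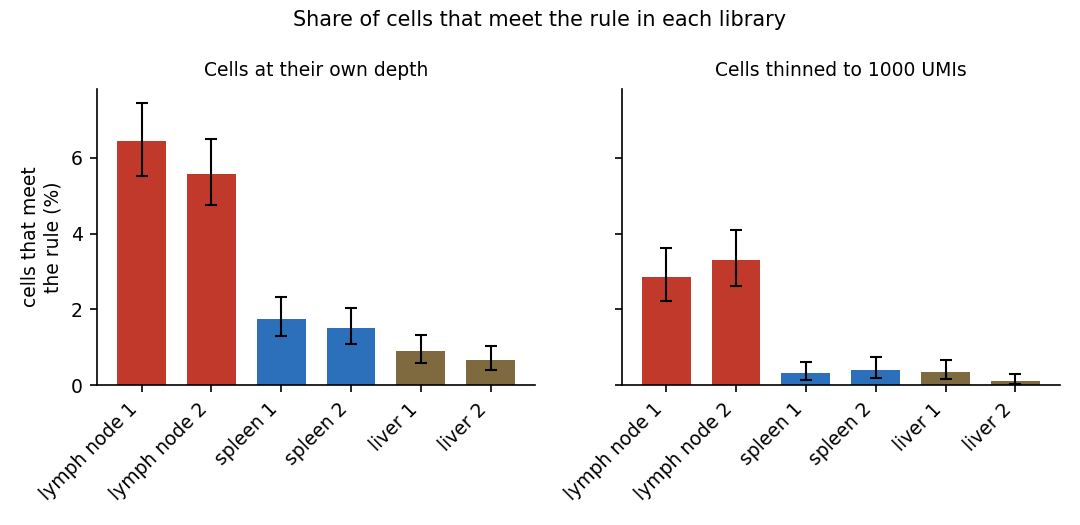
Share of cells that met the rule, in percent of the cells of each library, for the 2 libraries each of lymph node, spleen and liver, with cells at their own depth on the left and thinned to 1000 UMIs on the right. Bars give the share and lines its exact 95% binomial interval, and the lymph node libraries, at 6.44% and 5.58% at their own depth, stand above the spleen and liver libraries at 0.664 to 1.76%.

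Most rule cells were defined by few transcripts. Exactly 2 of the 8 genes were detected in 217 of the 329 cells (66.0%), 3 in 74, 4 in 28, 5 in 8 and 6 in 2 cells. Just outside the rule stood 864 lymph node cells with exactly 1 of the 8 genes and none of the 5 excluded ones. The median UMI count was 1671.5 in cells with 1 gene, 2101 in cells with 2 and 3291 in cells with 4. Of 419 lymph node cells with 2 or more of the 8 genes, 90 (21.5%) were left out for an excluded gene, which was Top2a in 37 of them, Blk in 29, Klrb1c in 18, Ccr6 in 15 and Il23r in 12.

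Il4 led the selection and Ccl1 was rare. Il4 was detected in 211 of the 329 cells (64.1%), Pdcd1 in 169 (51.4%) and Ccr10 in 155 (47.1%). Nrgn followed in 104 cells (31.6%), Cd200 in 84 (25.5%), Il13 in 40 (12.2%), Hes1 in 39 (11.9%) and Ccl1 in 18 (5.47%). Although few cells held Ccl1, single cells held many of its transcripts, and 1 cell gave 116 of the 130 Ccl1 UMIs of the first library (89.2%) and 1 cell 66 of 104 in the second (63.5%). The most frequent pairs were Pdcd1 with Il4 (98 cells), Il4 with Ccr10 (84), Pdcd1 with Ccr10 (61) and Nrgn with Pdcd1 (58). In 130 cells (39.5%) Il4 and 1 other gene made up the whole evidence, and 199 cells held 2 or more genes without counting Il4. Rule cells of spleen were led by Il4 too (83.0% of 88 cells), with Pdcd1 in 20.5% and Ccl1 in 0 of 88, which allows a share of cells with a UMI of up to 3.41%. In liver, Il4 was in 88.6% of 44 rule cells, Pdcd1 in 47.7% and Ccl1 in 2.27%.

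Because each gene was part of its own selection, its share was also taken with the gene left out, in lymph node cells that held 2 or more of the other 7 genes and none of the excluded ones, against cells that did not. Nrgn was in 22.3% of such cells against 2.62% of the others in the first library and in 20.3% against 2.15% in the second, ratios of 8.51 and 9.42. Pdcd1 was in 36.6% against 5.82% and in 31.7% against 5.80%, Cd200 in 15.6% against 1.78% and in 21.4% against 2.99%, and Ccl1 in 4.79% against 0.863% and in 2.56% against 0.391%. Il4 had a smaller contrast, with 42.2% against 15.6% and 38.9% against 16.0% (ratios of 2.70 and 2.43). Hes1 differed between the libraries, with ratios of 1.64 and 5.07. Each of the 8 genes was thus found more often beside the other 7 in both libraries, also after thinning to 1000 UMIs, where the lowest ratio was 1.26, for Ccr10 in the second library. The genes were picked together from these libraries, so these shares describe the selection and give no independent support for it.

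**Figure D2:**
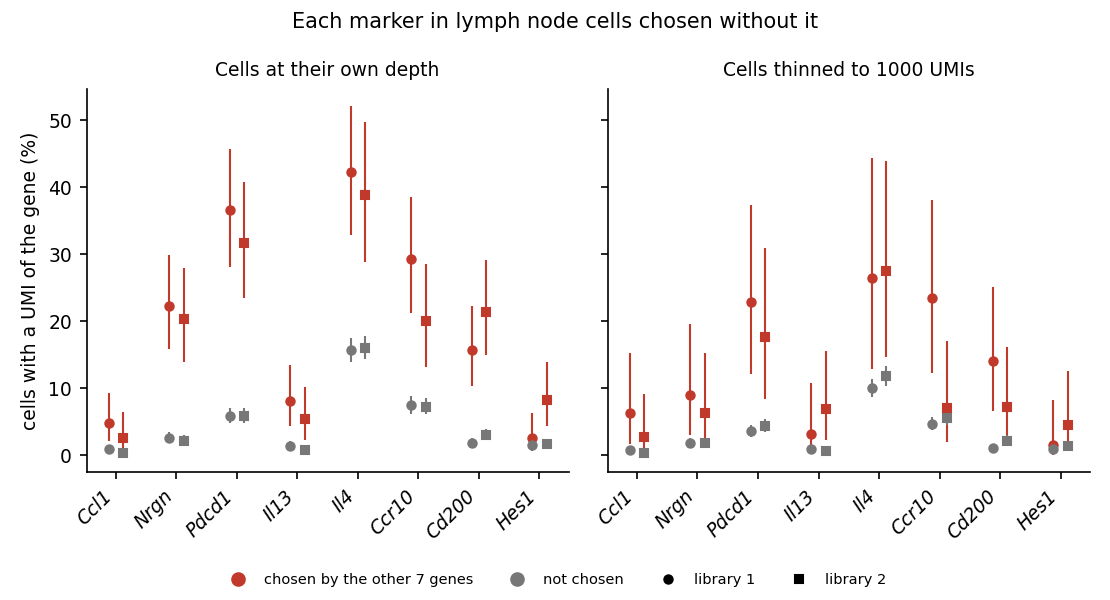
Share of lymph node cells with a UMI of each of the 8 genes, in percent, in cells chosen by the other 7 genes (red) and in cells not chosen (grey), with 1 point per library, its 95% binomial interval as a line, and thinned cells on the right. For Nrgn at full depth the chosen cells lie at 22.3% and 20.3% and the others at 2.62% and 2.15%.

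Lymph node cells with a UMI of Ccr6, Il23r or Blk, and with 0 UMIs of Klrb1c and Top2a, were taken as iNKT17-type cells for comparison. They numbered 503 and 572 cells, with median depths of 1990 and 1733 UMIs. In them Nrgn was detected in 1.79% and 1.40% of cells and Pdcd1 in 3.18% and 3.15%. Il4 was in 8.75% and 8.57% and Ccr10 in 11.1% and 8.92% of these cells. Whether these UMIs came from free RNA or from the cells themselves was not tested, and Ccr10 was as frequent here as in the cells not chosen by the other 7 genes (7.41% and 7.26%) or more so.

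The rule cells were then compared with the remaining cells of the same library, outside the 13 genes of the rule. Levels are UMIs per 1000000 summed UMIs of the cells (CPM), with ribosomal and haemoglobin genes left out of the sum, and log2 differences carry a prior count of 2. This comparison is a description with no test, since the rule was built on genes from these cells. A gene is said to be past the fold when it differed at least 2-fold the same way in both libraries. Of 9886 genes, 139 were higher (1.41%) and 390 lower (3.94%), together 529 (5.35%), and the median gene stood at −0.07. A sum over few cells is shallow (329 rule cells against 5157 remaining cells), and many genes past the fold rest on 5 to 20 UMIs.

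Of 14 measured genes known from follicular helper T cells, 7 were past the fold on the higher side and 0 on the lower, 12 were above 0 in both libraries, where 26.4% of all genes were, and the median log2 difference was 1.28 beside −0.07 for all genes. Selection on Pdcd1, Il4 and Cd200 can also raise genes expressed beside them, and what part this had was not tested. Il21, the cytokine by which helper T cells drive germinal centre B cells, had 30.8 and 38.6 CPM in rule cells (10 and 11 UMIs) against 4.19 and 3.02 in the remaining cells (log2 2.59 and 3.27). Tnfsf8, the ligand of CD30, had 40.0 and 52.7 CPM (13 and 15 UMIs) against 5.08 and 3.93. Cxcr5, the receptor that leads cells to B cell follicles, rested on 8 and 4 UMIs (log2 2.46 and 2.71). Tox, an HMG-box factor of helper and exhausted T cells, was better covered, with 191 and 270 CPM (62 and 77 UMIs) against 74.7 and 78.9 (log2 1.34 and 1.76). Rgs16, a brake on chemokine receptor signals, differed by 2.37 and 2.63, Tox2 by 2.26 and 1.98, and Slamf6, a receptor that works through SAP, by 1.17 and 1.02. Bcl6, the lineage factor of follicular helper cells, had 2 and 1 UMIs in rule cells and Batf differed by −0.11 and −0.06, so too few Bcl6 transcripts were captured to give its direction.

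Inhibitory and anergy genes gave 5 higher and 0 lower of 13 measured (median log2 0.76), beside 1.41% higher and 3.94% lower among all genes. Above 0 in both libraries were 8 of the 13, and 3 were below 0 in both. Among all genes 26.4% were above 0 and 32.5% below 0 in both libraries. Cd160 (ENSMUSG00000038304, GRCm38 chr3:96798763-96829351, minus strand), a receptor for HVEM, had 298 and 288 CPM in rule cells (97 and 82 UMIs) against 111 and 91.9 (log2 1.42 and 1.64). Tnfrsf9, the costimulatory receptor 4-1BB, had 46.2 and 59.7 CPM against 19.1 and 16.3. Egr2, a transcription factor tied to both NKT cell development and T cell anergy, had 43.1 and 28.1 CPM against 11.7 and 9.97. Tnfrsf4 (OX40, log2 2.02 and 2.45) and Lag3 (1.85 and 1.17) were past the fold on 7 to 9 UMIs per library. Tigit and Egr3 were at 0 UMIs in rule cells, and Ctla4 had 3 and 0.

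T cell receptor response genes gave 3 higher and 0 lower of 16 (median log2 0.53), beside 1.41% higher and 3.94% lower among all genes. Spry2, a feedback inhibitor of ERK signalling, had 185 and 140 CPM (60 and 40 UMIs) against 41.6 and 48.6 (log2 2.12 and 1.51). Ier3 and Irf4 were past the fold on 4 or fewer UMIs per library and are not described further. Against remaining cells without the excluded genes the list gave 1 of 16 past the fold, Spry2 (median 0.41), and with cells thinned to 1000 UMIs it gave 2 (median 0.32), with Spry2 at 1.27 on average and not past the fold. Nfatc1, a calcium-dependent factor, stood at 1.00 and 0.88, below the fold. Of the AP-1 and dissociation-response genes 1 of 13 was past the fold, Fosb, which was lower (15.4 and 31.6 CPM against 78.9 and 88.8), and Fos stood at 277 and 348 CPM against 591 and 609. Calcium and calmodulin genes, examined because neurogranin binds calmodulin, gave 0 past the fold of 14 (median −0.10).

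Il4 and Il13 were part of the selection, so the iNKT2 and type 2 genes describe these cells and do not test the iNKT2 label. Of 15 measured iNKT2 and type 2 genes outside the rule, 2 were past the fold higher and 1 lower, with a median of 0.39 and 8 genes above 0 in both libraries, beside 1.41% higher, 3.94% lower and 26.4% above 0 in both libraries among all genes. Izumo1r, the folate receptor 4 of iNKT2 and anergic T cells, had 449 and 509 CPM (146 and 145 UMIs) against 183 and 148 (log2 1.29 and 1.77). Areg, which encodes the growth factor amphiregulin, was past the fold on 6 and 5 UMIs. Zbtb16 was higher in both libraries below the fold, with 163 and 123 CPM against 89.7 and 81.6 (0.85 and 0.58). Icos, a costimulatory receptor, had 1178 and 1155 CPM against 837 and 950 (0.49 and 0.28). Gata3, the master factor of type 2 cells, was slightly lower, with 197 and 190 CPM against 236 and 221 (−0.26 and −0.22). Il2ra, the high-affinity interleukin-2 receptor chain, was the member past the fold on the lower side (3.08 and 10.5 CPM against 34.1 and 40.5), and Il5 and Il1rl1 were at 0 UMIs. The interleukin-4 receptor chain Il4ra, on 1 and 2 UMIs, stood at −2.17 and −0.997. Against remaining cells without the excluded genes Il4ra counted as a second member on the lower side (2 higher and 2 lower of 15, median 0.33). Among all genes 1.34% were higher and 2.85% lower in that comparison. After thinning the list gave 1 higher and 0 lower (median 0.22), with Areg at 0.74. Since Gata3 was not higher and Zbtb16 stayed below the fold, the cells are called rule cells and not iNKT2 cells in what follows.

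The iNKT1 and iNKT17 genes that were past the fold were all lower. Below 0 in both libraries were 15 of 21 iNKT1 and 14 of 18 iNKT17 genes, and 5 and 1 were above 0 in both. For iNKT1, 0 were higher and 9 lower of 21 measured (median −0.998, and −0.77 with genes at 0 UMIs set to their bound). The chemokine Ccl5 had 283 and 161 CPM (92 and 46 UMIs) against 827 and 806 (−1.54 and −2.31), and the natural killer receptor gene Klrk1 (NKG2D) had 80.0 and 80.7 against 225 and 258 (−1.48 and −1.66). Klrd1 (CD94) had 27.7 and 42.1 CPM against 140 and 133, and Xcl1, a chemokine for cross-presenting dendritic cells, 83.1 and 52.7 against 227 and 152. Il2rb, a receptor chain for interleukin-15, did not follow them, with 95.4 and 105 CPM against 94.5 and 103. With cells thinned to 1000 UMIs, 0 iNKT1 genes were higher and 5 lower of 21 (median −1.16). Among all 9886 genes 1684 were lower in that setting, and the median gene stood at −0.36. Ccl5, Klrk1, Klrd1 and Xcl1 stayed lower on average after thinning (−1.50, −1.74, −1.16 and −1.89) but were not past the fold. For iNKT17, 0 were higher and 10 lower of 18 (median −2.11). Pxdc1 had 21.5 and 73.7 CPM against 277 and 316, and Sdc1, the syndecan CD138, had 1 and 12 UMIs, so its size differed between libraries (−4.69 and −1.41).

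The exclusion of Ccr6, Il23r, Blk, Klrb1c and Top2a removes such cells from the rule cells by construction, and 31.9% of lymph node cells held at least 1 of these genes. Against remaining cells that also held none of the 5, 359 of the 529 genes stayed past the fold the same way and 4 changed sign. In that comparison 1.34% of all genes were higher and 2.85% lower. Of the iNKT17 genes 8 of 18 were lower (median −1.59), and of the iNKT1 genes 10 of 21 were lower and 1 was higher (median −1.12). The list of follicular helper genes had 6 of 14 higher and 0 lower (median 1.14), with Slamf6 at 0.84 on average and not past the fold. Ccl5 stood at −2.09 on average, Klrk1 at −1.60, Il21 at 2.75, Cd160 at 1.45 and Izumo1r at 1.24. Cycling genes turned, with 2 lower and 0 higher of 9 against all remaining cells (Cdk1 and Cenpf, median −0.62), and 0 lower and 2 higher against the matched cells (median 0.66), where Cdk1 stood at 0.34 and Cenpf at 0.18. With cells thinned to 1000 UMIs and the rule applied again (68 and 78 rule cells), 270 of the 529 stayed past the fold and 49 changed sign. Tox then stood at 2.07, Cd160 at 1.44, Il21 at 3.41 and Tox2 at −0.13. Among all 9886 genes 238 were then higher (2.41%) and 1684 lower. The follicular helper list then had 6 higher and 3 lower of 14 (median 0.69), and the inhibitory and anergy list 4 higher and 0 lower of 13 (median 1.16). With 3 or more of the 8 genes required, the follicular helper list had 4 higher and 0 lower (median 0.99). Tnfsf8, Tox2 and Slamf6 were not past the fold there (1.90, 1.49 and 1.14 on average). The inhibitory and anergy list had 7 higher and 3 lower (median 1.39), beside 2.24% higher and 10.4% lower among all genes. Which of these 2 lists stood higher thus depended on the setting.

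**Figure D3:**
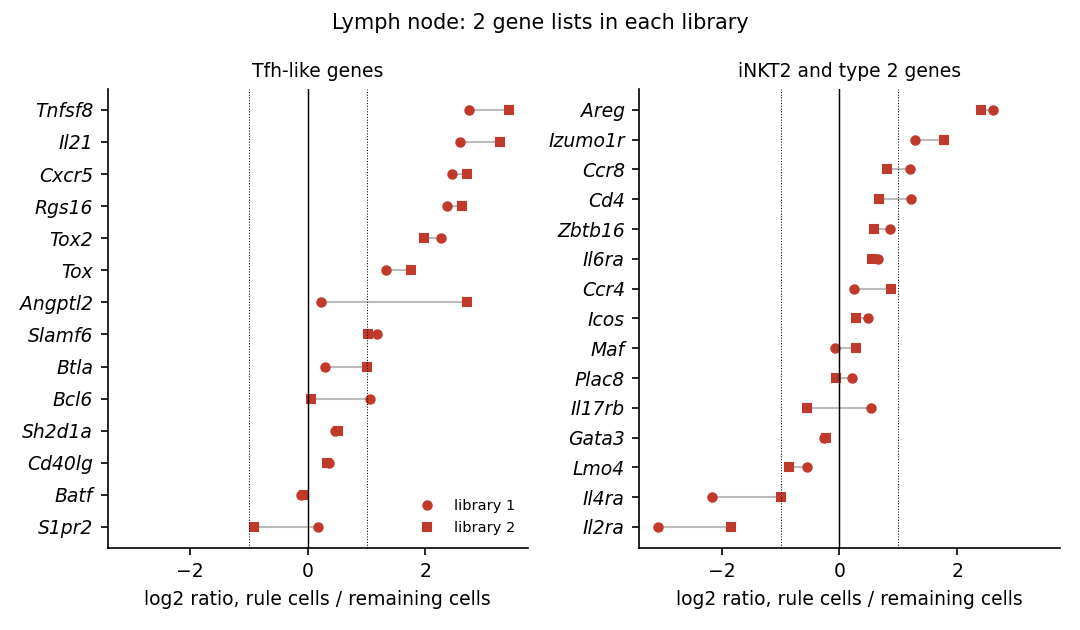
Log2 ratio of lymph node rule cells over the remaining cells of the same library for the measured follicular helper (Tfh-like) genes on the left and iNKT2 and type 2 genes on the right, with 1 point per library joined by a line, and dotted lines at the 2-fold limits. Of the 14 follicular helper genes 7 lie past the fold on the higher side in both libraries, and of the 15 iNKT2 and type 2 genes 2 do.

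Outside the lists, the highest differences lay in genes of low counts. Smtn, which encodes the cytoskeletal protein smoothelin, was highest with 13 and 17 UMIs in rule cells (mean log2 3.40). Klrb1a, from the receptor family that also holds the excluded Klrb1c, had 9 and 10 UMIs (2.92 and 3.24), and reads of these similar genes may be split between them. The vitamin D receptor gene Vdr had 5 and 8 UMIs, Zfp536 had 11 and 10, and 9530036M11Rik had 12 and 18 UMIs. Klrc2 and Camk2n1 were at 0 UMIs in rule cells, at least 5.46-fold and 4.95-fold lower than in the remaining cells by a floor of 3 UMIs over both libraries. Chemokine and migration genes gave 0 higher and 3 lower of 13 (Ccl5, Xcl1 and Ccr2), and Cxcr6, the receptor that holds NKT cells in liver, had 1181 and 1028 CPM against 1909 and 2315. Of 6 Notch pathway genes 1 was past the fold, Nrarp, which was lower although the Notch target Hes1 was used in the selection.

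Markers of other cells that the sort could hold were not past the fold on the higher side, where they could be compared. In rule cells Cd8a, Cd79a, Ms4a1, Foxp3 and Cpa3 were at 0 UMIs. B cell genes gave 0 past the fold of 4, and 1 of the 4 was above 0 in both libraries. Their summed level was higher in rule cells in both libraries, at 120 and 87.8 CPM against 86.4 and 78.0. Of 4 myeloid genes 1 was past the fold, the lysozyme gene Lyz2, which was lower, and the list summed to 231 and 253 CPM against 312 and 403. Regulatory T cell genes gave 1 lower of 4 (Il2ra), and mast cell and ILC2 genes 0 of 1. CD8 genes were too low to compare, with a summed level of 2.99 and 4.83 CPM in the remaining cells. Recent emigrant genes gave 1 lower of 9 (Dapl1) and interferon-response genes 0 of 10. Genes of the γδ T cell list and the T cell receptor constant genes are not analysed here. T cell core genes gave 0 past the fold of 8, with a summed level of 9029 and 8533 CPM against 8086 and 8002. Median mitochondrial shares were 4.78% and 5.21% in rule cells against 4.52% and 5.12%. The 2 lymph node libraries shared 8 barcodes, of which 1 belonged to a rule cell in either library. Without the 2% of cells with the highest doublet score in each library, 507 of the 529 genes stayed past the fold.

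Some genes outside the rule were followed over the number of the 8 genes detected, in cells that held none of the excluded ones. They were chosen after their values were seen, no count over all genes was made, and the cells with more genes detected were also deeper. Izumo1r went from 175 CPM with 0 genes to 333, 424 and 486 CPM with 1, 2 and 3 or more in the first library, and from 170 to 218, 409 and 691 in the second. Cd160 went from 103 to 143, 261 and 351 CPM and from 89.4 to 122, 251 and 355. Spry2 went from 44.1 to 61.9, 126 and 269 CPM and from 57.7 to 71.1, 87.2 and 237. Ccl5 went the other way, from 1112 to 715, 319 and 232 CPM and from 956 to 567, 185 and 118. Each step kept its direction in both libraries for these 4 genes, and the cells with 1 gene lay between those with 0 and those with 2. Id3, an inhibitor of E proteins, reached its level with 2 genes in the first library (87.6, 217, 434 and 448 CPM) and rose to 355 CPM in the second.

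**Figure D4:**
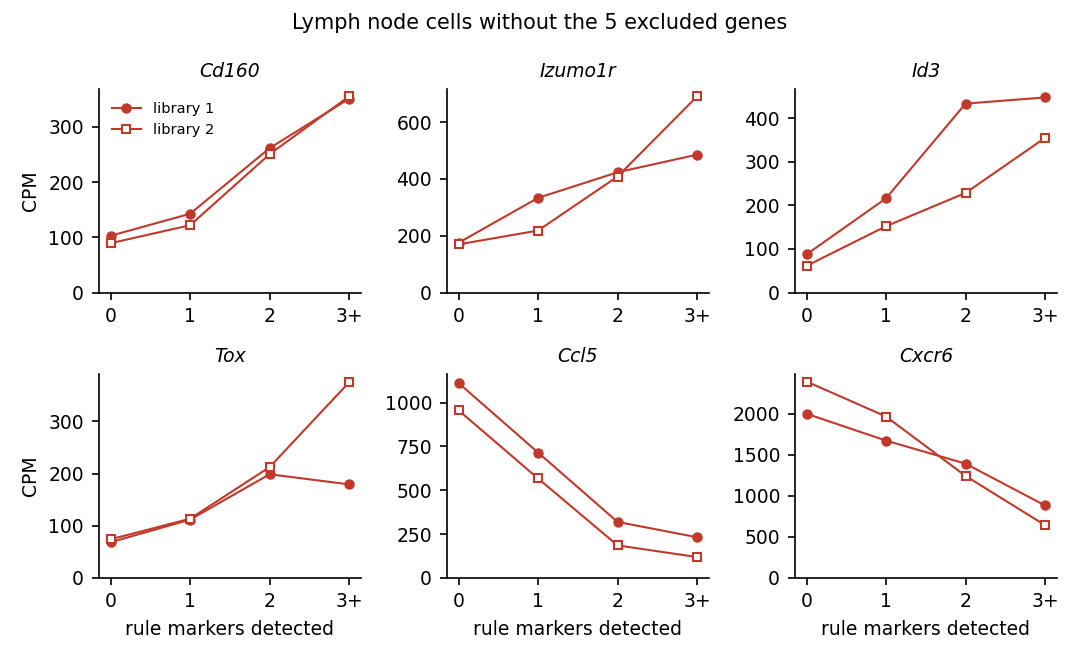
Level in CPM of Cd160, Izumo1r, Id3, Tox, Ccl5 and Cxcr6, on axes that start at 0, against the number of the 8 genes detected (0, 1, 2, and 3 or more) in lymph node cells with none of the 5 excluded genes, with 1 line per library. Cd160, Izumo1r, Id3 and Tox lie higher, and Ccl5 and Cxcr6 lower, in cells with 2 of the genes than in cells with 0, in both libraries.

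The rule cells were not uniform. Those held in by Il4 and 1 other gene (61 and 69 cells) were compared by their values with those that had 2 or more of the other 7 genes (109 and 90 cells), at like median depths of 2223 and 2097 against 2401 and 1991 UMIs. Tnfsf8 had 0 and 2 UMIs in the former and 13 and 13 in the latter. Smtn had 1 and 3 against 12 and 14 UMIs. Izumo1r had 293 and 327 CPM against 525 and 647, and Cd160 had 236 and 220 against 329 and 339. Both kinds of cell lay above the remaining cells in Izumo1r and Cd160, while most UMIs of Tnfsf8 and Smtn came from the cells with 2 or more of the other 7 genes. That group also holds cells with Il4 (113 and 73 Il4 UMIs) and the cells with 3 or more of the 8 genes, so the presence of Il4 and the number of genes detected cannot be told apart here. Ccl5 was at 500 and 155 CPM against 178 and 166, and so differed between the kinds in 1 library alone.

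The same rule applied to spleen and liver gave 88 and 44 cells, and this comparison asks which differences were also present outside lymph node. Rule cells had median depths of 3024 and 2920 UMIs in spleen (remaining cells 1714 and 1544) and 5649 and 4582 in liver (3585 and 2877). In lymph node rule cells the medians were 2346 and 2047 UMIs, so the rule was applied at unlike depths. The 8 genes were picked with earlier results of all 6 libraries known, so the spleen and liver cells are not fully independent of the rule. Thinning left 1 spleen and 1 liver library in the fit, with 10 rule cells each. Rule cells and remaining cells of each library were summed, and the mean effect in spleen and liver was tested with edgeR's quasi-likelihood test with a block for each library. After Benjamini-Hochberg adjustment 72 genes rose (0.728%) and 299 fell (3.02%), together 371 (3.75%) of 9886. With DESeq2 size factors 144 rose and 150 fell, so the share that rose went from 19.4% to 49.0%, and the median gene moved from −0.29 to −0.15. The Wald test of DESeq2 called 105 higher and 72 lower, so the balance of the directions depended on the method. Directions of small size are therefore read relative to that median.

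In spleen and liver the iNKT1 list had 0 higher and 14 lower of 21 genes (median −1.27). Ccl5 had 1576 and 1381 CPM in spleen rule cells against 5643 and 4919, and 2492 and 2379 CPM in liver rule cells against 5029 and 4035 (log2 −1.54 ± 0.06 SE, adjusted p = 1.6e-122, edgeR). Klrk1 fell by 2.38 ± 0.19 (adjusted p = 3.2e-32), Nkg7, a cytotoxic granule protein, by 1.27 ± 0.08 (2.7e-54), and Cxcr6 by 1.07 ± 0.08 (1.5e-34) in the same fit. Il2rb fell by 1.25 ± 0.16 (1e-11). The rule cells were lower in each of the 4 libraries for Ccl5, Klrk1, Nkg7 and Il2rb. Klrb1c, an iNKT1 marker, was excluded by the rule, and 332 of the 371 genes kept their call against remaining cells without the excluded genes. T cell core genes gave 4 lower of 8, Cd3d, Cd3g, Cd3e and Lat, at log2 values of −0.35 to −0.25, close to the median gene of −0.29, and these 4 calls were lost with DESeq2 size factors. Cycling genes gave 5 lower of 9, the excluded Top2a being a cycling gene too, and Stmn1, Birc5 and Rrm2 among them changed sign against remaining cells without the excluded genes (0.90, 0.18 and 0.81).

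Among the genes that rose in spleen and liver in this fit, several rested on 1 library. Vim, the intermediate filament vimentin, rose by 1.33 ± 0.21 (adjusted p = 7.2e-08, edgeR) and kept its call without any single library, but not after thinning (1.32, adjusted p = 0.66). Id3 rose by 1.95 ± 0.36 (8.4e-06), with 271 and 245 CPM in spleen rule cells against 47.3 and 54.7, and 108 and 0 CPM in liver rule cells against 16.1 and 18.5. Without the first liver library the fitted value for Id3 was −3.03 (adjusted p = 0.82), a fit in which the remaining liver library has 0 UMIs, and the Wald test of DESeq2 gave 1.78 (0.14). Izumo1r rose by 0.62 ± 0.17 (0.0091), and stood at 0.27 without the first spleen library (0.74) and at −0.32 without the first liver library (0.77). Zbtb16 rose by 0.71 ± 0.23 (0.049) and lost its call without 5 of the 6 libraries in turn, at values of 0.38 to 0.78. These 2 were the iNKT2 and type 2 genes that rose, and 1 fell, of 15 (median 0.20). The one that fell was Il4ra (adjusted p = 0.0068), with 0 and 0 UMIs in spleen rule cells and 2 and 1 in liver, and its call was lost without either spleen library and after thinning (adjusted p = 0.15, 0.056 and 0.65). Inhibitory and anergy genes gave 2 higher (Lag3 and Nrp1) and 2 lower (Cd160 and Tnfrsf18) of 13 (median −0.73), with Cd160 at −1.10 ± 0.15 (1.5e-10). After thinning Cd160 stood at −1.70 (adjusted p = 0.092) and Nrp1 at −2.70 (0.84), and the calls of Nrp1 and Tnfrsf18 were also lost without the first spleen or the second liver library. Lag3 rose by 3.18 ± 0.82 (0.005), on 12 UMIs in all 4 libraries of which 8 were from the first liver library, and stood at −1.86 without it (0.94) and at 2.76 without the second spleen library (0.5). Follicular helper genes gave 0 higher and 0 lower of 14 (median 0.07), which at 88 and 44 cells leaves genes such as Il21 (3 UMIs in all) undecided. In the same fit Tox stood at 1.03 ± 0.33 (adjusted p = 0.053).

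The difference between the lymph node effect and the mean effect in spleen and liver was tested as an interaction in the same edgeR fit. Of 9886 genes 59 were higher in this difference (0.597%) and 8 lower (0.0809%), together 67 (0.678%), around a median gene of 0.24. With DESeq2 size factors 21 were higher and 18 lower, so the share of higher calls went from 88.1% to 53.8% and the median to 0.10. Single libraries mattered here too, and without one of them the count of higher genes ranged from 8 to 53. The Wald test of DESeq2 called 7 of the 67 genes the same way.

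Cd160 had the firmest organ difference of this kind. In lymph node it was higher in rule cells than in the remaining cells (log2 1.42 and 1.64), in spleen it was lower (193 and 156 CPM against 488 and 399), and in liver it was lower as well (260 and 282 CPM against 385 and 386). The interaction was 2.62 ± 0.21 (adjusted p = 1.2e-32, edgeR), and its call held under each alternative that was run. Across organs the level in rule cells themselves spanned 156 to 298 CPM, while that in remaining cells spanned 91.9 to 488 CPM. Against spleen rule cells Cd160 of lymph node rule cells stood at 0.79 ± 0.30 (adjusted p = 0.11) and against liver at 0.17 ± 0.29 (0.76). Neither difference was called, which does not show that the rule cells were alike. What part rule cells and remaining cells had in the change of sign was not tested.

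Other genes with an organ difference were Ctsw, Lgals3 and S100a6, which with Cd160 held their calls without each single library. After thinning, which left 10 rule cells each in 1 spleen and 1 liver library, these 3 lost their calls, with values of 1.90, 4.01 and −0.68. Ctsw, the cytotoxic lymphocyte protease cathepsin W, had an interaction of 1.16 ± 0.17 (adjusted p = 3.9e-08, edgeR), with 428 and 348 CPM in lymph node rule cells against 334 and 237, and 280 and 278 CPM in spleen rule cells against 421 and 352. Lgals3, the galactoside-binding lectin galectin-3, had −2.16 ± 0.24 (1.3e-15), being lower in lymph node rule cells (255 and 288 CPM against 517 and 592) and higher in spleen rule cells (446 and 512 against 183 and 157). In liver Lgals3 had 228 CPM against 72.2 in the first library and 93.9 against 89.3 in the second. S100a6, a calcium-binding protein, had −0.95 ± 0.12 (3.3e-12). Il2rb had an interaction of 1.27 ± 0.28 (0.0026), since it fell in spleen and liver and not in lymph node, but lost its call without either lymph node library or the first spleen library (1.29, 1.25 and 1.13, adjusted p = 0.16, 0.15 and 0.1).

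Izumo1r had an interaction of 0.90 ± 0.18 (adjusted p = 0.00042, edgeR) and lost its call against remaining cells without the excluded genes (0.56, adjusted p = 0.37) and without the second lymph node, spleen or liver library (0.68, 0.74 and 0.63, adjusted p = 0.53, 0.055 and 0.099). Spry2 had 1.85 ± 0.51 (0.045) on 5 UMIs in spleen rule cells and 4 in liver, and lost its call without 5 of the 6 libraries. Prkca, protein kinase C alpha, had 1.82 ± 0.37 (0.00041), with 160 and 102 CPM in lymph node rule cells against 52.9 and 42.6, and stood at 1.63 without the first lymph node library (0.3). Ccl5 (−0.32 ± 0.16, adjusted p = 0.58) and Id3 (0.02 ± 0.33, adjusted p = 1) were not called different between the organs. For Id3 this interval leaves room for differences in either direction.

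**Figure D5:**
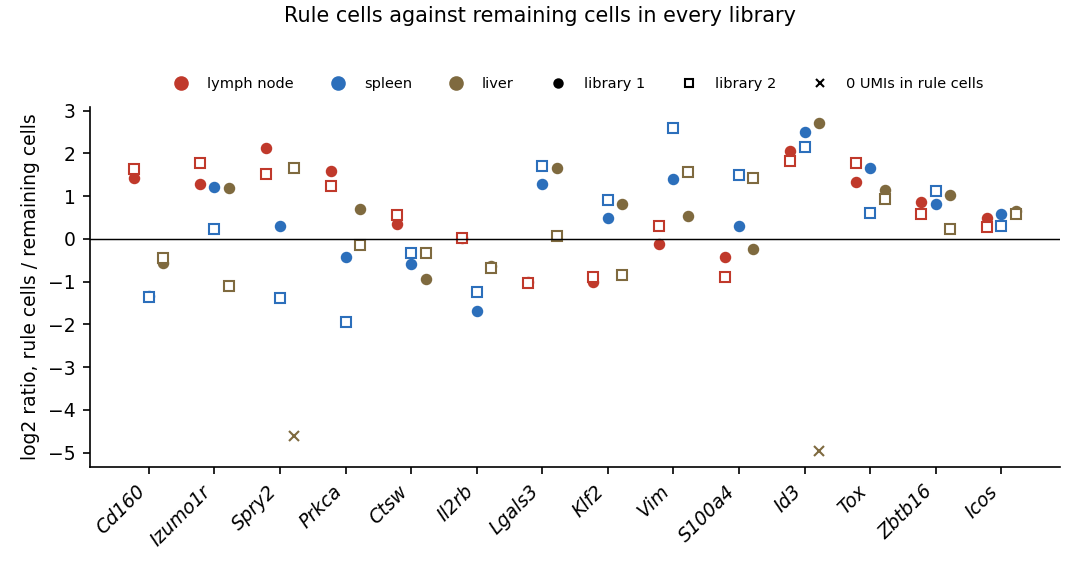
Log2 ratio of rule cells over the remaining cells of the same library for 14 genes outside the rule, with 1 point per library, colours for organs, and crosses where rule cells held 0 UMIs, whose height depends on the prior count. Cd160 lies at 1.42 and 1.64 in the lymph node libraries and below 0 in the 4 others, while Lgals3 lies below 0 in lymph node and above 0 in the 4 others.

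Rule cells were last compared with each other across organs (6 sums of rule cells, edgeR, 2271 genes with enough counts). Against spleen, 85 genes were higher in lymph node (3.74%) and 53 lower (2.33%), together 138 (6.08%). Against liver, 176 were higher (7.75%) and 190 lower (8.37%), together 366 (16.1%). Both comparisons share the lymph node sums, and the rule cells of spleen and liver were deeper than those of lymph node. Thinning left 1 spleen and 1 liver library with 10 rule cells each. Calls lost after thinning therefore go with fewer libraries and cells as well as with lower depth, which cannot be told apart.

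Immediate-early genes stood out in both comparisons. Of 8 AP-1 and dissociation-response genes 7 were higher and 0 lower against spleen, and 6 were higher and 1 lower against liver. Fos had 277 and 348 CPM in lymph node rule cells against 8.75 and 22.3 in spleen (log2 4.39 ± 0.53, adjusted p = 2.9e-14), and 0 and 15.7 in liver (5.48 ± 0.69, 2.7e-13). After thinning the adjusted p for Fos was 0.22 and 0.19, with its direction kept. Junb had 3243 and 3289 CPM against 525 and 390 in spleen (2.87 ± 0.20, 1.5e-43) and 488 and 376 in liver (2.94 ± 0.21, 1.5e-40). The remaining cells carried the same gap, with Fos at 591 and 609 CPM in lymph node, 27.1 and 22.3 in spleen and 13.4 and 8.42 in liver. These genes respond to cell handling as well as to activation, the gap was shared by unselected cells of the organ, and the part of handling was not tested.

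Among named genes of the helper and type 2 lists, directions were mixed. Follicular helper genes gave 1 higher (Tox) and 1 lower of 5 against either organ (Slamf6 against spleen and Batf against liver), and iNKT2 and type 2 genes gave 1 higher (Icos) and 2 lower (Plac8 and Lmo4) of 7 against spleen and 3 higher (Icos, Izumo1r and Lmo4) and 1 lower (Plac8) of 7 against liver. Plac8 had the largest difference among these called genes in both comparisons, at −2.18 ± 0.31 (adjusted p = 4.4e-10, edgeR) and −3.42 ± 0.28 (2.5e-32), and held its call in each alternative that was run. The calls of Lmo4 against spleen and Izumo1r against liver were lost in some of them, Lmo4 without either library of lymph node or spleen and Izumo1r without the second liver library (0.45, adjusted p = 0.35). Batf lost its call against liver in 8 of 11 alternatives and Slamf6 its call against spleen in 3 of 11. Icos had 1178 and 1155 CPM against 569 and 501 in spleen (1.17 ± 0.19, adjusted p = 6.7e-08, edgeR) and 509 and 470 in liver (1.29 ± 0.21, 2.4e-08), and lost both calls after thinning (1.76 and 1.23, adjusted p = 0.23 and 0.33). Cd28, the main costimulatory receptor, differed by 1.20 ± 0.19 (6.3e-08) and 1.60 ± 0.22 (4e-11), the latter call being lost after thinning (2.82, adjusted p = 0.14). Tox differed by 1.69 ± 0.39 (0.00048) and 1.499 ± 0.41 (0.0036), and lost its call without the second library of lymph node or of the other organ (1.43 and 1.32 against spleen, 1.26 and 1.26 against liver) and by the Wald test of DESeq2 (adjusted p = 0.17 and 0.18). Id3 was higher than in liver by 2.53 ± 0.41 (3e-08) and stood at 0.53 ± 0.27 against spleen (0.31). Zbtb16 stood at 0.07 ± 0.35 and −0.10 ± 0.37 and Gata3 at −0.36 ± 0.29 and 0.51 ± 0.36, with adjusted p of 0.96, 0.91, 0.6 and 0.38. The remaining cells of lymph node held more Icos than those of spleen and liver too (837 and 950 CPM against 380 and 409 and against 323 and 313).

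Of 13 iNKT1 genes tested, 1 was higher in lymph node rule cells than in spleen and 5 were lower (median −0.23), and 0 were higher than in liver and 7 lower (median −1.37). The gene higher than in spleen was Ifng, which encodes interferon-γ (1.46 ± 0.48, adjusted p = 0.039, edgeR), and it lost this call without either lymph node or either spleen library (1.16 to 2.00, adjusted p = 0.052 to 0.45) and by the Wald test of DESeq2 (0.68). Klrk1 (0.39 ± 0.49, 0.78) and Il2rb (0.24 ± 0.42, 0.86) were not called against spleen. Ccl5 differed by −2.66 ± 0.20 from spleen (adjusted p = 8.3e-37, edgeR) and by −3.39 ± 0.20 from liver (5.8e-62), and the remaining cells carried a gap of the same direction (827 and 806 CPM in lymph node, 5643 and 4919 in spleen, 5029 and 4035 in liver). Nkg7 differed by −0.93 ± 0.20 (0.00016) and −2.13 ± 0.19 (9.9e-28), and the call against spleen was lost without the second spleen library (−0.84, adjusted p = 0.051). After thinning both calls of Nkg7 were lost (−1.03 and −0.96, adjusted p = 0.51 and 0.44). Tbx21 had 12.3 and 17.6 CPM in lymph node rule cells, 78.8 and 78.0 in spleen and 141 and 125 in liver, and differed from liver by −3.08 ± 0.70 (0.00025) and from spleen by −2.29 ± 0.75 (0.039), the latter call being lost without any 1 of the lymph node or spleen libraries or the second liver library. Klf2, a factor that drives egress receptors, was lower than in spleen by −2.49 ± 0.28 (6.1e-16). Against liver it was at −1.14 ± 0.38 (0.021), but at 0.26 without the first liver library (0.88), and after thinning both calls were lost (−1.16 and −2.59, adjusted p = 0.72 and 0.12). Rule cells of spleen and liver held Ccl5 and Tbx21 at several times the lymph node level, although the same exclusion of Klrb1c applied to them.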

How the data were processed

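The deposited files were raw UMI counts per gene and cell for 6 libraries (2 per organ), which the authors made with Cell Ranger 3.1.0 on mm10 from 10x Genomics 3′ v2 libraries. Per the labels the molecule was nuclear RNA, while the protocol describes whole cells, and this was not settled. Gene totals held 27998 genes, and 191 ribosomal and haemoglobin genes were left out of the CPM totals and tests.

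Cells with 300 to 4000 genes and at most 15% mitochondrial UMIs were kept (16532 of 16587 barcodes). Total UMIs were 5126226 and 4758138 in the lymph node libraries. No doublets were removed in the main analysis. The members, the 20 gene lists and the tests were chosen with earlier results of these data known, and gene lists written for this work were used unchanged in each comparison.

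Counts were summed per library over rule cells and over the remaining cells, with at least 10 cells in a sum. Tests used edgeR 4.0.16 in R 4.3.3 (filterByExpr, TMM, robust quasi-likelihood fit, Benjamini-Hochberg adjusted p under 0.05), and the 13 rule genes stayed out of them. A share of rule cells, and the lymph node contrast, got no test. Standard errors are the size of the log2 value over the root of the F statistic. Named genes were the 13 rule genes, the 10 highest and 8 lowest per comparison with 20 CPM or more in the higher group, and list members past the fold or called; others (such as Gata3, Bcl6, Id3 in lymph node, or Tox in spleen and liver) were chosen after their values were seen. Positions are from GENCODE on GRCm38 by Ensembl identifier, and promoters from RefSeq on GRCm38.p6.

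Alternatives were DESeq2 1.42.0 size factors and its Wald test, no filter, each library left out, other fold and prior settings, remaining cells without the excluded genes, cells thinned to 1000 UMIs, removal of high Scrublet scores (scanpy 1.11.5), 3 of 8 genes, and a replicate block. The rule was applied again to the thinned counts. Leaving a library out of the shares was added after seeing the data. Scripts were tested on simulated data. Replicate numbers did not pair the libraries. Intervals cover counting error only. Values of some single list members are not reported here.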

Additional observations from a re-analysis of the deposited data

Results flagged for a closer look

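Each gene below was singled out by a called difference between the lymph node effect (rule cells over remaining cells) and the mean effect in spleen and liver, in the edgeR interaction test, and the log2 difference is given for each. The median gene stood at 0.24, and of all 9886 genes 0.597% were higher and 0.0809% lower. With DESeq2 size factors the higher calls went from 59 to 21 and the lower calls from 8 to 18. Of the iNKT1 list 4 of 21 genes were higher in lymph node, namely Gzma (2.99), Il2rb (1.27), Ctsw (1.16) and Id2 (0.35). Of the T cell core list 3 of 8 were higher, Cd28 (0.66), Cd3d (0.38) and Cd3g (0.37), and of the T cell receptor response list 1 of 16, Spry2 (1.85). Id2, Cd3d and Cd3g lay close to the median gene. Cd160 stood at 2.62, Prkca at 1.82 and Tespa1 at 1.58. Izumo1r stood at 0.90, Tmem106b at 1.97, Pld3 at 1.52, Rab37 at 1.25 and Hmgb2 at 0.59. Emid1 stood at 9.68, a fitted value that rests on 0 UMIs in rule cells of spleen and liver and is no measure of size.

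Lower in lymph node were Lgals3 (−2.16), S100a6 (−0.95), Klf2 (−1.33), Vim (−1.26), S100a4 (−1.24), Lmo4 (−0.88), Gpx1 (−0.77) and Lgals1 (−0.67). Of these 25 genes, 4 (Cd160, Ctsw, Lgals3 and S100a6) kept their call without each single library, and Cd160 also when cells were thinned. Groups of 2 libraries are too small for a search for single outlying libraries.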

How the results depend on the processing

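The count of lymph node genes past the fold was 396 higher and 818 lower at 1.5-fold, 38 and 164 at 3-fold, 238 and 1684 with cells thinned to 1000 UMIs, 221 and 1029 with at least 3 of the 8 genes, and 705 lower without a filter. With a single library it was 472 to 535 higher and 1188 to 1287 lower, since agreement of both libraries then falls away. Of the 529 genes past the fold in lymph node, 354 stayed past it with a prior count of 5, and 529 with a prior count of 0.5. In spleen and liver, 144 rose and 150 fell with DESeq2 size factors, 105 rose and 72 fell by the Wald test and 0 rose after thinning, and without one library 33 to 58 rose and 163 to 286 fell. The interaction gave 21 and 18 with those size factors, 3 and 4 by the Wald test, 17 higher against matched remaining cells, and 100 and 0 after thinning, and 8 to 53 and 4 to 11 without one library. Against spleen, lymph node rule cells gave 35 and 18 by the Wald test and 5 and 5 after thinning, and 45 to 100 and 19 to 53 without one library. Against liver these were 50 and 70, then 12 and 6, 117 lower without a filter, and 92 to 190 and 91 to 175 without one library. A replicate block gave 85 higher and 54 lower against spleen and 171 and 193 against liver. Replicate numbers did not pair the libraries (r = 0.063, 0.065 and 0.046 between organs).

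Mean shares of rule cells became 3.09, 0.356 and 0.231% (lymph node, spleen, liver) after thinning, 2.05, 0.204 and 0.124% with 3 of 8 genes, and 7.66, 2.40 and 1.91% without the exclusion. With a single library they were 5.58 to 6.44%, 1.51 to 1.76% and 0.664 to 0.893%.

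Some single genes changed sign, and the cause was not tested. In lymph node, 9530036M11Rik (−0.049), Tox2 (−0.13) and Cdk1 (0.61) did so after thinning, and Cdk1 (0.34) and Cenpf (0.18) against matched cells. In spleen and liver without the first liver library, Lag3 (−1.86), Igfbp4 (−1.91), Id3 (−3.03) and Izumo1r (−0.32) did, with highest values without another library of 3.86, 2.25, 2.38 and 0.87. There, thinning, which left 1 spleen and 1 liver library of 10 rule cells each, gave Lag3 −0.10, Plscr1 −5.83, Nr4a1 −1.15, Igfbp4 −6.07, Irf8 −2.86, Nrp1 −2.70, Tnfsf11 −7.22, Zbtb16 −4.39, Izumo1r −0.55, Hsp90aa1 −0.36, Stmn1 0.29, Birc5 0.64 and Rrm2 1.89, and matched cells gave Stmn1 0.90, Birc5 0.18 and Rrm2 0.81. The thinned interaction gave Lgals3 4.01, Gpx1 4.77 and Lgals1 0.020, the thinned comparisons of rule cells Cxcr3 5.15 (spleen) and Hmgb2 −0.86 (liver), and leaving out the first liver library Klf2 0.26 (lowest without another library −1.68). Of the other values of named genes, 472 lost the call and 133 moved. At least 3 of the 8 genes could not be fitted outside lymph node, where fewer than 10 cells were left per library. Depth limits the rest: in the spleen and liver sums a gene at under 20 CPM rests on few UMIs.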
